A study of Mus musculus with 2 samples.

Results

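The D cyclins, CDK4, CDK6, their inhibitors and RB were described in mouse bone marrow by single-cell RNA sequencing. The group held 9 genes of the 32285 in the count matrices, chosen by symbol alone: the D cyclins *Ccnd1*, *Ccnd2* and *Ccnd3*, the kinases *Cdk4* and *Cdk6*, the inhibitors *Cdkn2c*, *Cdkn2d* and *Cdkn1b*, and *Rb1*. All 9 symbols were found. D cyclins bind CDK4 or CDK6, and the active kinase phosphorylates the retinoblastoma protein RB, which then releases E2F factors that drive genes of DNA replication. The INK4 proteins p18 (*Cdkn2c*) and p19 (*Cdkn2d*) hold CDK4 and CDK6 apart from their cyclins, and p27 (*Cdkn1b*) binds cyclin and kinase together. In the neutrophil line, early precursors divide, and later stages leave the cycle for good while they fill with granules and mature.

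The study asked how loss of the kinase MAP4K4 affects neutrophil development. Bone marrow came from mice of 13 to 14 weeks on a C57BL/6 background, 1 library labelled control (Ctrl) and 1 labelled *Map4k4*-cKO (cKO). The cKO mice were Mx1-Cre *Map4k4* f/f, and the controls were littermates that the methods write as Mx1-Cre *Map4k4* -/-. Mx1-Cre is switched on by interferon, here through injected poly I:C, in many cell types besides blood stem cells. The methods give these injections for the f/f mice and do not say whether the controls received them. For each library, 2 parts of c-Kit+ progenitors from magnetic beads were mixed with 3 parts of marrow freed of red cells, so shares of cell types were set by the mixture, and whether several animals were pooled is not given in the sources used here.

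Each condition was 1 library, so no difference between conditions could be tested, and all intervals below are exact 95% intervals that cover counting error only. After filters, 8795 cells were kept in the library labelled Ctrl (median 4940 UMIs) and 5347 in the library labelled cKO (median 8783). *Map4k4* itself read 72.3 CPM (UMIs of a gene scaled to the total; interval 70.3 to 74.3) in the former and 64.0 CPM (62.0 to 66.0) in the latter. In ProNeu-like cells it read higher in the library labelled cKO (19.6 CPM, 17.4 to 21.9) than in that labelled Ctrl (11.3, 9.65 to 13.2). In PreNeu-like, imNeu-like and mNeu-like cells of the library labelled Ctrl it read 15.7, 106 and 145 CPM. The library labelled cKO read lower there, at 12.7, 81.0 and 124 CPM, with overlapping intervals in PreNeu-like cells alone. All genes tested had median log2 ratios, cKO over Ctrl, of -0.27, -0.32, -0.42 and -0.50 from ProNeu-like to mNeu-like cells. Lower readings were thus not particular to *Map4k4*. The paper reports loss of the transcript in stem and progenitor cells by RT-PCR. Thus *Map4k4* UMIs did not separate the libraries in the way of the labels at every stage. A 3′ tag can lie outside the deleted exons, so this does not check the label, and each library is named here by what it is labelled. The libraries shared 3010 barcode names, and profiles of the same name were no more alike than those of different names (median correlation -0.015 against -0.0070, over 500 genes).

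Cells were sorted into 17 gates by marker genes that include none of the 9 genes. The gates ProNeu-like, PreNeu-like, imNeu-like and mNeu-like follow the neutrophil line from progenitors with primary granule genes, through secondary granule cells, to mature cells. PreNeu-like and imNeu-like cells shared the same granule markers and were divided by the share of UMIs from 41 cycle genes, at 0.25%, a value set after the shares had been seen. In the library labelled Ctrl these 4 gates held 849, 1014, 1050 and 1316 cells, and in the library labelled cKO 894, 664, 927 and 1218. imNeu-like and mNeu-like cells were shallower than the earlier stages, with medians along the 4 gates of 16793, 10125, 4878 and 2424.5 UMIs per cell in the former and 16462, 18967, 11298 and 6125 in the latter. CPM is a share of these totals, so a level or rising CPM can go with fewer UMIs per cell. Between 0.125 and 0.5% of cycle UMIs lay 20.7% and 22.9% of PreNeu-like cells and 11.3% and 5.93% of imNeu-like cells. Among the 10 genes of each gate with the highest fold over other cells, 0 were markers of other classes alone. From 1 (plasma cell-like) to 8 (ProNeu-like) were markers of its own, with 2 in GMP-like, imNeu-like and MEP-like cells. The 2 in GMP-like cells, *Cd34* and *Sox4*, are also on the HSC/MPP list, so none was a marker of GMP alone. *Mpo* in ProNeu-like cells is also on the GMP list. The same markers set the gates, so this was largely fixed by the sorting and is no independent check. It cannot part PreNeu-like from imNeu-like cells, which share 1 list. GMP-like cells were the least certain, since the ProNeu list (14529 and 17008 CPM) stood above the GMP list (8826 and 8331 CPM) in them and 46.3% and 47.5% of them lay close to a second class. The secondary granule list (7405 and 3447 CPM) stood above the HSC/MPP list (3517 and 3049 CPM) in HSC/MPP-like cells. The libraries labelled Ctrl and cKO had 14.6% and 15.2% of cells without a clear class. No doublets were called or removed.

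*Ccnd3*, *Cdk4* and *Cdkn1b* stand for the courses described below, and the 250 bases before their RefSeq start sites are shown for that reason. *Ccnd3* went up before the exit from division, *Cdk4* went down, and *Cdkn1b* went up at the first and at the last step. The windows are from RefSeq on GRCm38.p6, plus strand, 5′ to 3′. They lie at chr17:47504801-47505050 (*Ccnd3*, upstream start), chr10:127063285-127063534 (*Cdk4*) and chr6:134920151-134920400 (*Cdkn1b*). Capitals mark the GC box GGGCGG or its complement CCGCCC, the letters bound by Sp1-type factors.
Ccnd3: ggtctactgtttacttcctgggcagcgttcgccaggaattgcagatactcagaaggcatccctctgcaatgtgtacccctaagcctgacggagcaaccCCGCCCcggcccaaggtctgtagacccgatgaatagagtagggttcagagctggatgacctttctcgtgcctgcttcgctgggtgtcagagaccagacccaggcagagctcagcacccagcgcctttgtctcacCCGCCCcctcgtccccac
Cdk4: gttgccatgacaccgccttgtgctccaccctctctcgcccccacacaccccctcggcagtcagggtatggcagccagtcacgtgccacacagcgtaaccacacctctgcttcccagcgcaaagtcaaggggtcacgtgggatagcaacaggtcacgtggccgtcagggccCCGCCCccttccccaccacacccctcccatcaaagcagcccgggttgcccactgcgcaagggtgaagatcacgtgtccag
Cdkn1b: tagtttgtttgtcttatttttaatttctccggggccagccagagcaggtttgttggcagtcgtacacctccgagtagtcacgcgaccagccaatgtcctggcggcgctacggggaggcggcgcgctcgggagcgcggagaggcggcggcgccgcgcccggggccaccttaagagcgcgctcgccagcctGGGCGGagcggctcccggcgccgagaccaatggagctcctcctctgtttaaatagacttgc
The *Ccnd3* window held GC boxes 152 and 18 bases before the start, that of *Cdk4* 1 at 80 bases and that of *Cdkn1b* 1 at 61 bases. Windows were given for 6 of the 9 genes, 8 windows in all. By GENCODE, exons of the gene itself covered all 250 bases of the upstream *Cdkn2c* window and 198 of the *Cdkn2d* window. By that annotation these 2 windows are largely transcribed sequence. Of all 32851 windows, 32.7% held a GC box on either strand. None of the 8 windows held the E2F letters TTTGGCGC, TTTCCCGC, TTTGCCGC, TTTCGCGC or GGCGGGAA, which 3.24% of all windows held, or the C/EBP letters TTGCNNAA, which 9.56% held. The GC box and GGCGGGAA were added to the search after the first motifs had matched no member. By annotation (GENCODE, GRCm38), *Ccnd1* lies at chr7:144929931-144939925, *Ccnd2* at chr6:127125162-127152193, *Ccnd3* at chr17:47505051-47599691, *Cdk4* at chr10:127063534-127067920 and *Cdk6* at chr5:3341485-3531008. *Cdkn1b* lies at chr6:134920401-134925513, *Cdkn2c* at chr4:109660876-109667189, *Cdkn2d* at chr9:21288410-21291407 and *Rb1* at chr14:73183673-73325822. Exons of *Ccnd1*, *Ccnd2*, *Ccnd3*, *Cdk4*, *Cdk6* and *Rb1* share bases with a gene on the opposite strand, and no source used here states how strand was counted.

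Across the marrow, the 9 genes led in different cell types, some of them shared. A 3′ UMI count does not grow with transcript length, but capture can differ between genes. Levels were thus compared between gates, and where UMIs of several genes are set side by side, as shares or levels, these are shares of captured UMIs and not of protein or of RNA molecules in the cell. *Ccnd1* led in plasmacytoid dendritic (pDC-like) cells, *Ccnd2* in T/NK-like cells, *Ccnd3* in erythroblast-like cells, *Cdk6* in stem and multipotent (HSC/MPP-like) cells and *Cdk4* in megakaryocyte-erythroid (MEP-like) and GMP-like cells. The inhibitor *Cdkn2d* led in neutrophil stages, and *Rb1* led in erythroblast-like cells. The library labelled cKO held fewer than 50 cells in 10 of the 17 gates, so orders over all gates rest on the library labelled Ctrl.

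**Figure D1:**
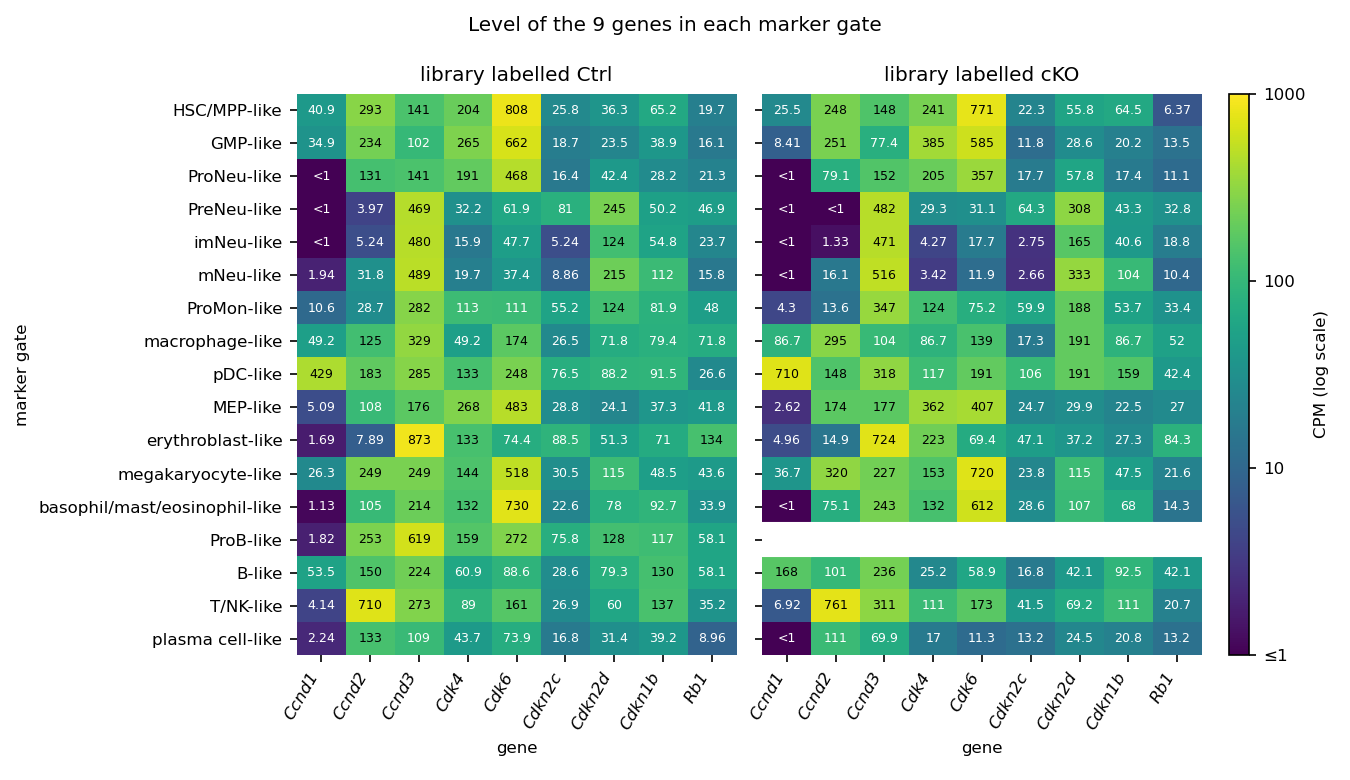
Heat map of CPM for the 9 genes (columns) in the 17 marker gates (rows), for the library labelled Ctrl (left) and cKO (right), with the value in each cell and a log colour scale; "<1" includes no UMI, and the row with 3 cells is blank. *Ccnd3* stands at 469 to 516 in the PreNeu-like, imNeu-like and mNeu-like rows, where *Cdk4* and *Cdk6* stand at or below 61.9.

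*Ccnd3*, the D cyclin of late precursors in blood, gave most D cyclin UMIs in neutrophils past the progenitor stage. In ProNeu-like cells it read 141 CPM (135 to 147) in the library labelled Ctrl and 152 (146 to 158) in that labelled cKO. In PreNeu-like cells it read 469 (456 to 482) and 482 (470 to 494), a rise of 1.73 and 1.66 on the log2 scale. In CPM it then stayed near that level after division ended, but its UMIs per cell fell. PreNeu-like, imNeu-like and mNeu-like cells of the library labelled Ctrl held 5081, 2653 and 1765 UMIs in 1014, 1050 and 1316 cells. Those of the library labelled cKO held 5878, 4961 and 4073 UMIs in 664, 927 and 1218 cells. imNeu-like cells read 480 and 471 CPM, and mNeu-like cells 489 and 516. The log2 ratio from PreNeu-like to imNeu-like cells was 0.03 (-0.04 to 0.10) and -0.03 (-0.09 to 0.02), by counting error alone. Over the alternatives in processing this ratio ran from -0.03 to 0.29 and from -0.07 to 0.31. Only 2 gates of the library labelled Ctrl had a higher level, erythroblast-like cells (873 CPM, 830 to 917) and ProB-like cells (619, 587 to 653). Both stood apart from their neighbours in the order by their intervals. The stem, GMP-like and ProNeu-like levels of 102 to 141 CPM were among the lowest.

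*Ccnd2*, a D cyclin of progenitors and lymphocytes, took the opposite course and then rose again in part, staying below its ProNeu-like level. It read 293 and 248 CPM in HSC/MPP-like cells, and 131 (125 to 137) and 79.1 (74.8 to 83.6) in ProNeu-like cells of the libraries labelled Ctrl and cKO. In PreNeu-like cells it read 3.97 (2.87 to 5.35) and 0.656 CPM (0.283 to 1.29), from 43 and 8 UMIs. The log2 ratio was -5.04 and -6.91, the steepest drop of the 9 genes at that step in both libraries. It read 5.24 and 1.33 CPM in imNeu-like cells, and the PreNeu-like and imNeu-like intervals overlapped. In mNeu-like cells it read 31.8 (26.3 to 38.2) and 16.1 CPM (13.4 to 19.2), a rise of 2.60 (2.00 to 3.24) and 3.60 (2.80 to 4.51) on the log2 scale over imNeu-like cells. *Ccnd2* led in T/NK-like cells, with 710 and 761 CPM. The 11 T/NK markers together gave 13.6 and 8.16 CPM in imNeu-like cells and 7.20 and 2.54 CPM in mNeu-like cells, where 7 of the 11 had a UMI in each library, so they stood lower where *Ccnd2* stood higher. Lists of other cells with *Ccnd2* stood higher along with it: from imNeu-like to mNeu-like cells the 12 HSC/MPP markers went from 36.7 to 50.4 and from 9.02 to 12.2 CPM, and the 9 ProNeu markers from 916 to 1340 and from 460 to 609. The 9 B markers went from 35.6 to 49.5 CPM in the library labelled Ctrl and from 12.9 to 8.11 in that labelled cKO. The part of such UMIs in the *Ccnd2* rise was not tested.

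*Ccnd1*, a D cyclin better known from epithelial and mesenchymal cells, was all but missing from the neutrophil line. Its 4 stages held 12, 2, 2 and 7 UMIs in the library labelled Ctrl and 9, 2, 2 and 3 in that labelled cKO, at most 1.94 CPM. pDC-like cells read 429 CPM (378 to 485) and 710 (550 to 901), the latter from only 15 cells. In the library labelled Ctrl the next in order were B-like (53.5), macrophage-like (49.2), HSC/MPP-like (40.9), GMP-like (34.9) and megakaryocyte-like cells (26.3), whose neighbours overlapped by their intervals. In HSC/MPP-like cells the library labelled cKO read 25.5 CPM (17.4 to 36.0).

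The mix of D cyclins therefore turned over along the line. Of the UMIs of the 3 D cyclins, *Ccnd3* made up 29.6% (27.4 to 32.0) in HSC/MPP-like cells and 51.8% in ProNeu-like cells of the library labelled Ctrl. PreNeu-like cells had 99.1% (98.8 to 99.4), imNeu-like cells 98.8% and mNeu-like cells 93.5% (92.3 to 94.6). In the library labelled cKO these shares were 35.2%, 65.6%, 99.8%, 99.7% and 96.9%. Erythroblast-like cells, the other late precursors with strong *Ccnd3*, had 98.9% and 97.3%. ProMon-like cells, a gate by monocyte markers in which 46.4% and 40.9% were over the cycle share, had 87.8% and 95.1%.

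Both kinases fell at the same step. *Cdk6* read 468 CPM (457 to 480) and 357 (348 to 367) in ProNeu-like cells of the libraries labelled Ctrl and cKO, and 61.9 (57.3 to 66.8) and 31.1 (28.0 to 34.4) in PreNeu-like cells. It dropped by 2.92 and 3.52 on the log2 scale. *Cdk4* read 191 (184 to 198) and 205 (198 to 213) in ProNeu-like cells and 32.2 (28.9 to 35.8) and 29.3 (26.4 to 32.5) in PreNeu-like cells, and dropped by 2.57 and 2.81. Cycle genes made up 0.556% and 0.454% of UMIs in ProNeu-like cells and 0.679% and 0.613% in PreNeu-like cells, but the latter were chosen by that share. At the exit, *Cdk4* read 15.9 and 4.27 CPM in imNeu-like cells, and the log2 ratio was -1.02 (-1.37 to -0.68) and -2.78 (-3.26 to -2.33). The Ctrl value fell short of 2-fold with median-of-ratios scaling (-0.76), with a mean of per-cell proportions (-0.84) and with the cycle share cut at 0.5% (-0.54). *Cdk6* read 47.7 and 17.7 CPM there, with log2 ratios of -0.38 and -0.81 that did not reach 2-fold. mNeu-like cells read 19.7 and 3.42 CPM of *Cdk4* and 37.4 and 11.9 CPM of *Cdk6*.

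Elsewhere *Cdk4* was highest in progenitor gates, and *Cdk6* in these and in basophil/mast/eosinophil-like and megakaryocyte-like cells. *Cdk6*, which has roles of its own in stem and myeloid cells, read 808 and 771 CPM in HSC/MPP-like cells and 730 and 612 in basophil/mast/eosinophil-like cells. Those 2 gates overlapped by their intervals in the library labelled Ctrl. *Cdk4* read 268 and 362 CPM in MEP-like and 265 and 385 in GMP-like cells. *Cdk6* made up 79.8% (78.4 to 81.2) and 76.2% of the UMIs of both kinases in HSC/MPP-like cells, 71.0% and 63.5% in ProNeu-like cells, and 35.9% and 23.7% in erythroblast-like cells. The 3 neutrophil stages from PreNeu-like on were the 3 lowest of all 17 gates for both kinases in the library labelled Ctrl.

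The INK4 inhibitors came up at the step where the kinases went down. *Cdkn2d* read 42.4 CPM (39.1 to 45.9) and 57.8 (54.1 to 61.6) in ProNeu-like cells, and 245 (236 to 254) and 308 (298 to 318) in PreNeu-like cells. It rose by 2.53 and 2.42 on the log2 scale. It read 124 (115 to 134) and 165 (157 to 173) in imNeu-like cells and 215 (200 to 231) and 333 (320 to 346) in mNeu-like cells. In CPM the level thus dipped and returned. UMIs per cell did not return in the library labelled Ctrl. PreNeu-like, imNeu-like and mNeu-like cells there held 2651, 687 and 777 UMIs in 1014, 1050 and 1316 cells. In the library labelled cKO they held 3759, 1735 and 2623 UMIs in 664, 927 and 1218 cells. UMIs per cell there rose a little at the last step and stayed below the PreNeu-like value. The dip was -0.98 (-1.10 to -0.86) and -0.90 (-0.99 to -0.82), just short of 2-fold, and the return was 0.79 and 1.01. With the main settings both lay near the limit. The dip passed it in both libraries with the cycle share cut at 0.5% (-1.13 and -1.05) and with double the margin between scores (-1.08 and -1.03). At its shallowest under the alternatives the dip was -0.72 and -0.56. The return in the library labelled cKO lay under the limit in 6 alternatives, the lowest 0.85.

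Along the neutrophil line *Cdkn2c* peaked in PreNeu-like cells. It was low in ProNeu-like cells, although 94.7% and 87.8% of these were over the cycle share. It read 16.4 CPM (14.4 to 18.6) and 17.7 (15.7 to 19.9) in ProNeu-like cells, and 81.0 (75.7 to 86.5) and 64.3 (59.9 to 69.0) in PreNeu-like cells, a rise of 2.30 and 1.86 on the log2 scale. In imNeu-like cells it read 5.24 (3.51 to 7.53) and 2.75 CPM (1.84 to 3.95), from 29 UMIs in each library. It dropped by 3.95 (interval of the log2 ratio -4.54 to -3.42) and 4.55 (-5.13 to -4.01), between gates that were divided by the cycle share. In mNeu-like cells 32 and 21 UMIs were left, 8.86 and 2.66 CPM. The share of *Cdkn2d* in the UMIs of both INK4 genes was 75.1% (73.7 to 76.6) and 82.7% in PreNeu-like cells, and 96.0% and 99.2% in mNeu-like cells. In the library labelled Ctrl, erythroblast-like (88.5), PreNeu-like (81.0), pDC-like (76.5) and ProB-like cells (75.8 CPM) led for *Cdkn2c* and overlapped by their intervals.

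*Cdkn1b* was highest at the end of the line in CPM, but in UMIs per cell it was highest in PreNeu-like cells of both libraries. Along the 4 stages of the library labelled Ctrl it had 406, 544, 303 and 405 UMIs in 849, 1014, 1050 and 1316 cells. In the library labelled cKO it had 273, 528, 428 and 818 UMIs in 894, 664, 927 and 1218 cells. It read 28.2 CPM (25.5 to 31.1) and 17.4 (15.4 to 19.6) in ProNeu-like cells, 50.2 and 43.3 in PreNeu-like cells (log2 ratio 0.83 and 1.32, past 2-fold in the library labelled cKO alone, and 1.45 and 1.98 with median-of-ratios scaling) and 54.8 and 40.6 in imNeu-like cells. In mNeu-like cells it read 112 (101 to 124) and 104 (96.7 to 111), a rise of 1.03 (0.81 to 1.25) and 1.35 (1.18 to 1.52) on the log2 scale. The Ctrl value fell short of 2-fold in cells of at least 2000 UMIs (0.94) and with mitochondrial, ribosomal and marker genes left out of the total (0.88). The step into imNeu-like cells, where cycle genes were lost, gave 0.13 (-0.08 to 0.33) and -0.09 (-0.28 to 0.10). Among all gates of the library labelled Ctrl, T/NK-like (137), B-like (130), ProB-like (117) and mNeu-like cells (112) led, and neighbours in that order overlapped.

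*Rb1*, the target of the kinases, peaked in PreNeu-like cells. It read 21.3 CPM (18.9 to 23.8) and 11.1 (9.55 to 12.9) in ProNeu-like cells, and 46.9 (42.9 to 51.2) and 32.8 (29.6 to 36.2) in PreNeu-like cells, a rise of 1.14 and 1.56 on the log2 scale (0.93 and 1.29 with mitochondrial, ribosomal and marker genes left out of the total). It read 23.7 and 18.8 CPM in imNeu-like cells and 15.8 and 10.4 in mNeu-like cells, with log2 ratios of -0.99 and -0.80 at the former step. In erythroblast-like cells it read 134 (118 to 152) and 84.3 CPM (58.4 to 118).

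**Figure D2:**
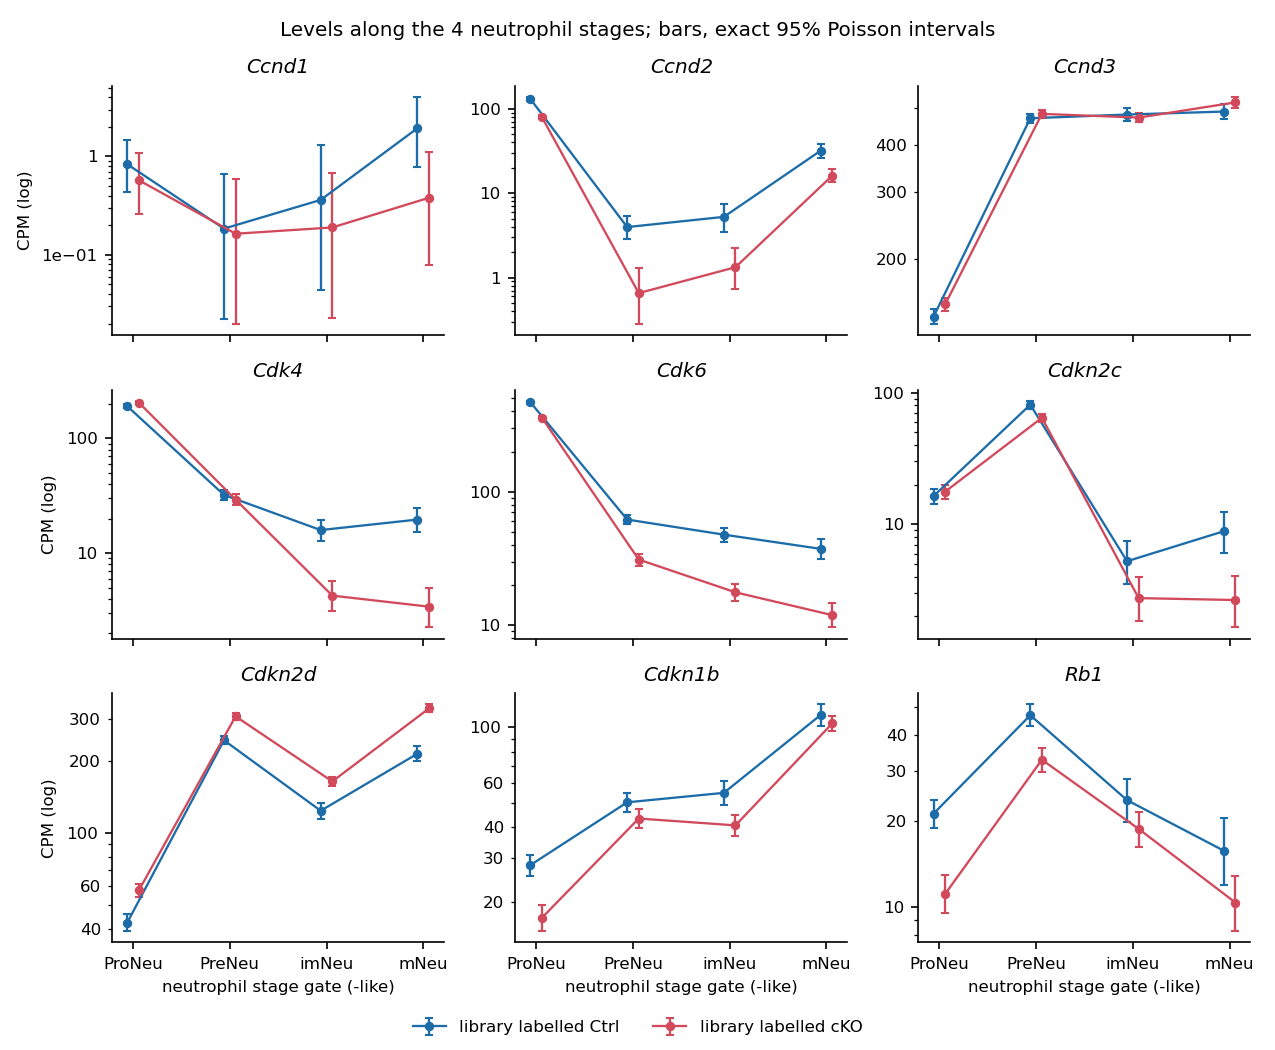
CPM (log axis) of the 9 genes in the 4 neutrophil stage gates, with exact 95% Poisson intervals, for the library labelled Ctrl (blue) and cKO (red). *Ccnd2*, *Cdk4* and *Cdk6* drop from ProNeu-like to PreNeu-like cells while *Ccnd3*, *Cdkn2c*, *Cdkn2d* and *Rb1* rise; *Cdkn2c* then drops by 3.95 and 4.55 on the log2 scale into imNeu-like cells.

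Counted over the group, the step from ProNeu-like to PreNeu-like cells moved most of it. Past 2-fold in the same direction in both libraries were 8 of 9 genes tested: 4 lower (*Ccnd1*, *Ccnd2*, *Cdk4* and *Cdk6*) and 4 higher (*Ccnd3*, *Cdkn2c*, *Cdkn2d* and *Rb1*). *Ccnd1* rested on 12 against 2 and 9 against 2 UMIs, and its interval in the library labelled cKO held 0 (-5.06 to 0.47). Of all 11651 genes tested, 34.9% were lower and 6.16% higher by the same rule. The median log2 ratio of all genes was -0.65 and -0.71. That of the 9 genes, 0.83 and 1.32, was the ratio of *Cdkn1b*, which lay between the 4 lower and the 4 higher genes. It does not describe a shift of the group. The step from PreNeu-like to imNeu-like cells had 2 of 8 genes lower (*Cdk4* and *Cdkn2c*) and 0 higher, where 15.0% of 10318 genes were lower and 5.66% higher. The step to mNeu-like cells had 0 of 8 lower and 2 higher (*Ccnd2* and *Cdkn1b*), where 7.17% of 9755 genes were lower and 10.8% higher.

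Finer order along the line was read from 7932 neutrophil cells ranked by the mature score less the primary granule score, without the cycle genes, and cut into 10 equal bins. Bins 1 and 2 held ProNeu-like cells only. Bin 3 held 4.35% ProNeu-like and 82.6% PreNeu-like cells in the library labelled Ctrl, and 36.4% and 61.2% in that labelled cKO. The bins use 2 of the marker scores that also set the gates. In the library labelled Ctrl the border between bins 2 and 3 thus lay close to that between the gates. The drop there largely repeats the comparison of ProNeu-like with PreNeu-like cells. In the library labelled cKO the 2 borders lay further apart. Between bins 2 and 3, *Ccnd2* went from 124 to 6.24 CPM in the library labelled Ctrl and from 65.2 to 2.81 in that labelled cKO. *Cdk6* went from 427 to 78.0 and from 335 to 55.3. In bin 3 the cycle genes still made up 0.629% and 0.570% of UMIs. That share was 0.417% and 0.411% in bin 5 and 0.180% and 0.170% in bin 6. *Cdkn2c* peaked in bin 4 (77.4 and 64.6 CPM) and read 17.7 and 19.7 in bin 6. *Rb1* peaked in bin 4 as well (48.0 and 36.4 CPM). *Ccnd3* stayed between 403 and 569 CPM from bin 3 to bin 10. *Ccnd2* climbed again from bin 7 (10.7 and 1.62) to bin 10 (57.1 and 25.3 CPM), and *Cdkn1b* reached 120 and 127 CPM there.

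**Figure D3:**
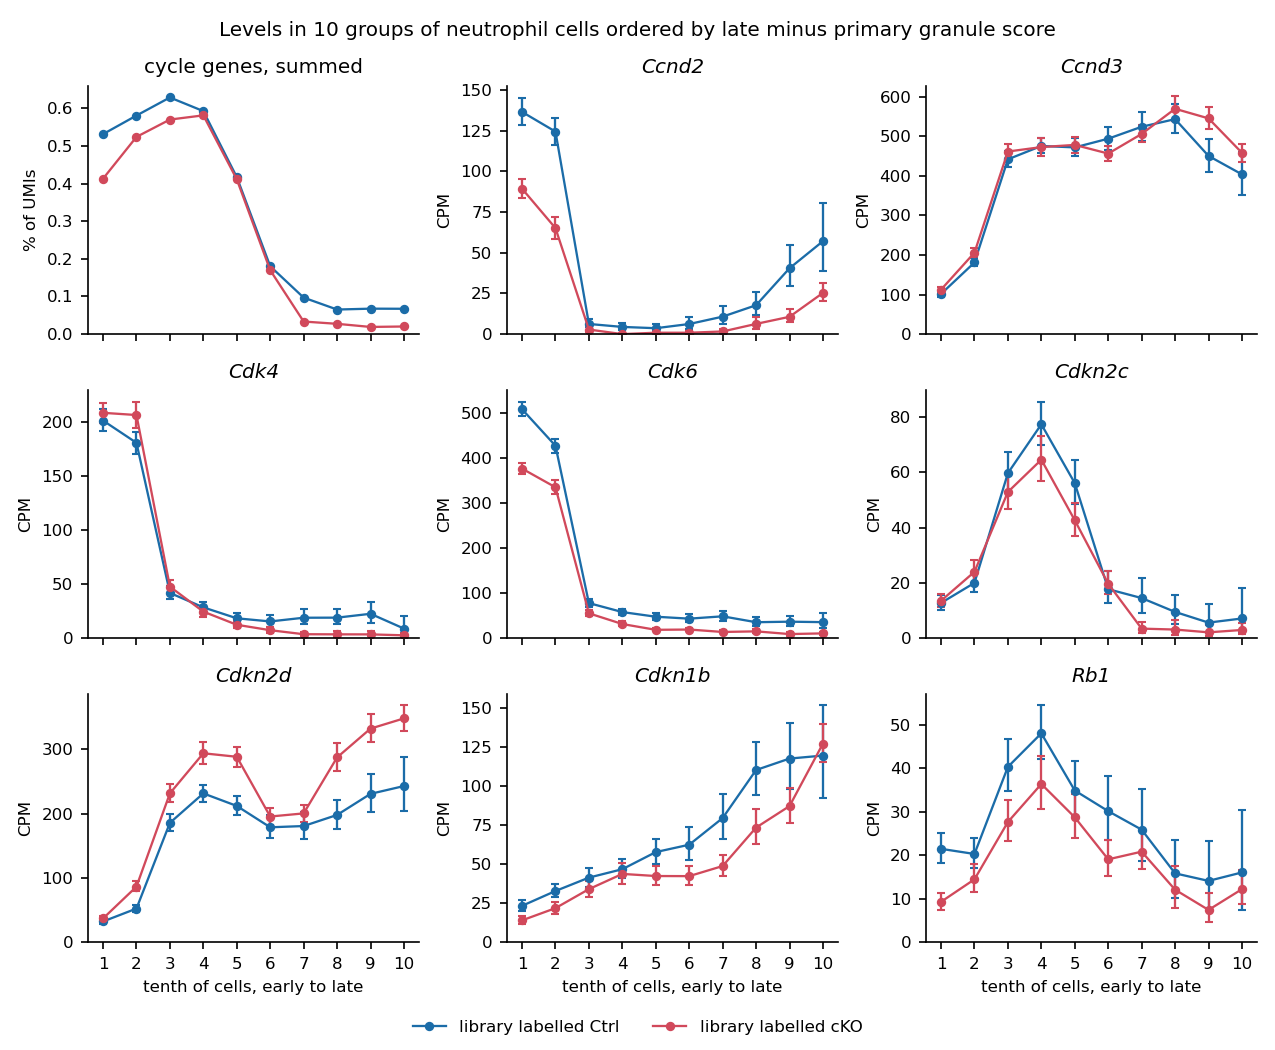
Share of UMIs from 41 cycle genes (first panel, %) and CPM of 8 genes (other panels, exact 95% Poisson intervals) in 10 bins of neutrophil cells from early to late, for the library labelled Ctrl (blue) and cKO (red). The kinases and *Ccnd2* drop between bins 2 and 3, before the cycle genes drop between bins 4 and 7; *Cdkn2c* and *Rb1* peak in bin 4, *Cdkn1b* is higher in the last bins than in the first, and *Ccnd2* climbs in the last bins.

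The balance of inhibitors and kinases changed with the same step. The 3 inhibitors made up 11.7% (11.1 to 12.3) of the UMIs of inhibitors and kinases together in ProNeu-like cells of the library labelled Ctrl, and 14.2% (13.5 to 14.9) in the library labelled cKO. In PreNeu-like cells, the last cycling stage, they made up 80.0% (78.8 to 81.1) and 87.3% (86.4 to 88.2). From there to imNeu-like cells the libraries went opposite ways, to 74.3% (71.9 to 76.6) and 90.5% (89.2 to 91.6), and mNeu-like cells had 85.5% (83.6 to 87.3) and 96.6% (96.0 to 97.2). HSC/MPP-like cells (11.2% and 12.4%) and MEP-like cells (10.7% and 9.12%) were close to ProNeu-like cells. Outside the neutrophil line, B-like (61.4% and 64.3%) and ProMon-like cells (53.7% and 60.3%) had the next highest shares in the library labelled Ctrl.

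Within PreNeu-like cells some levels differed between sets of cells with less and with more G2/M among their cycle UMIs. The cells were put in 3 equal sets by the G2/M part of their cycle UMIs, 39.2% and 43.2% in the first set and 92.5% and 92.4% in the last. From the first set to the last, *Cdk4* went from 58.6 CPM (50.9 to 67.2) to 17.1 (13.1 to 22.0) in the library labelled Ctrl and from 59.0 (51.8 to 67.0) to 12.2 (9.15 to 15.9) in that labelled cKO. *Cdkn2d* went the other way, from 131 (119 to 143) to 293 (276 to 312) and from 191 (178 to 205) to 357 (340 to 375). *Cdkn1b* read 36.0 and 31.7 CPM in the first set and 55.3 and 50.3 in the last. *Ccnd3* stayed between 435 and 510 CPM in all 6 values. *Cdkn2c* (102 and 71.2 CPM) and *Rb1* (57.5 and 42.5 CPM) read highest in the middle set. Their intervals there overlapped those of the first set, except for *Cdkn2c* in the library labelled Ctrl. In ProNeu-like cells *Cdkn2d* likewise read 24.2 and 29.2 CPM in the first set and 64.5 and 101 in the last, whereas *Ccnd2* read 173 and 96.8 in the first and 101 and 55.6 in the last. Phase sets come from sparse counts of a few genes per cell, and cells could also lie in them by their place along the line.

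Cycling and other cells of 1 gate were compared outside the late neutrophil stages, where both kinds were present. In ProMon-like cells 5 of 9 genes were at least 2-fold higher in cycling cells in both libraries, where 10.7% of all genes tested were: *Cdkn2c*, *Ccnd2*, *Cdk6*, *Cdk4* and *Ccnd1*. None was lower, where 5.41% of genes were. *Cdkn2c* rose by 3.18 (2.45 to 4.01) and 3.38 (2.65 to 4.21) on the log2 scale, from 16 UMIs in the other cells of each library. *Ccnd3* gave 0.01 (-0.15 to 0.16) and 0.10 (-0.05 to 0.26), and *Cdkn1b* -0.16 (-0.44 to 0.13) and 0.03 (-0.36 to 0.43). *Cdk4* and *Cdkn2c* stayed past 2-fold under every alternative tried. *Ccnd2* and *Cdk6* did not with the cycle share cut at 0.5% (0.37 and 0.10 for *Ccnd2*, 0.86 and 0.67 for *Cdk6*) or in the library labelled cKO with cells gated after thinning to 1000 UMIs (0.26 and 0.98). *Ccnd1* rested on 11 and 2 UMIs in the other cells and came to 0.88 and 0.04 with a mean of per-cell proportions. In HSC/MPP-like cells 0 of 8 genes tested passed in either direction, where 3.79% of genes were higher and 1.50% lower. In ProNeu-like cells 1 of 8 was higher (*Cdkn2d*, 1.45 and 1.06), where 2.20% were, and 0 were lower, where 0.735% were. That ratio rested on 9 and 44 UMIs in the other cells and came to 0.65 and 0.50 with cells gated after thinning to 1000 UMIs. Only 45 and 109 ProNeu-like cells fell under the cycle share. The other ProMon-like cells were shallower than the cycling ones (median 4739 against 10346 UMIs, and 9248 against 19982). Cycling and other ProMon-like cells could also differ in stage, which was not tested.

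**Figure D4:**
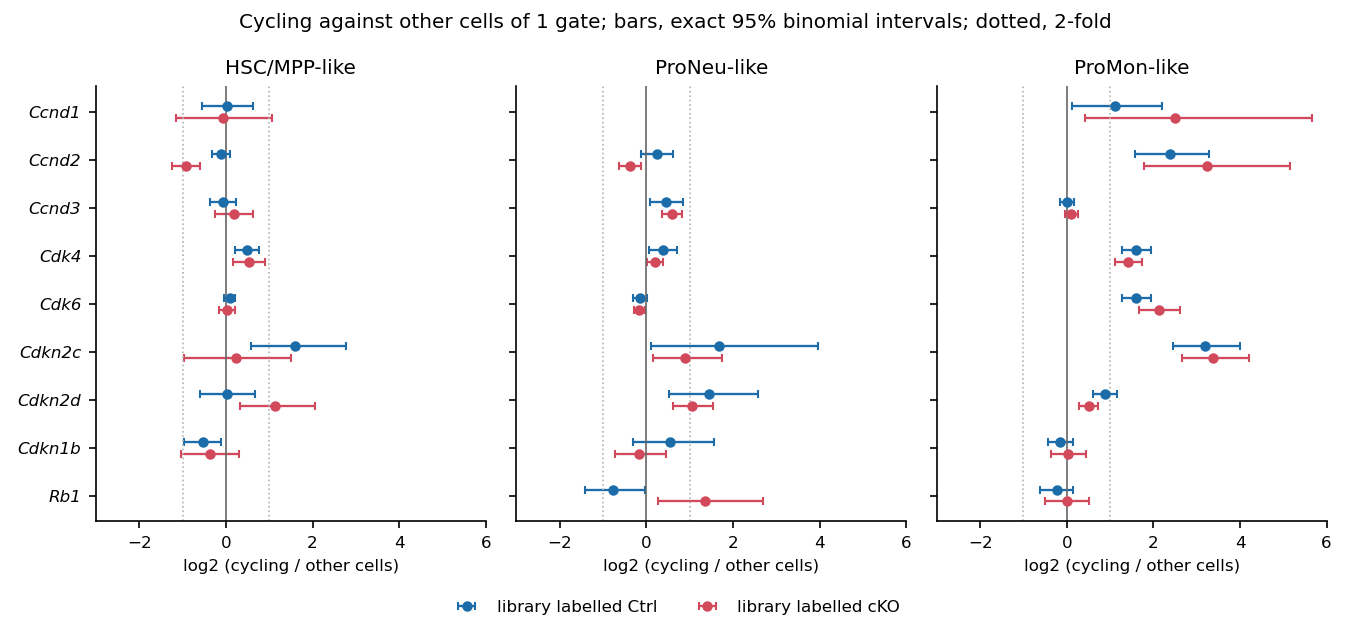
Log2 ratio of CPM in cycling over other cells (x axis, exact 95% binomial intervals) for the tested genes in HSC/MPP-like, ProNeu-like and ProMon-like cells, for the library labelled Ctrl (blue) and cKO (red); dotted lines mark 2-fold. In ProMon-like cells *Ccnd1*, *Ccnd2*, *Cdk4*, *Cdk6* and *Cdkn2c* lie to the right of 2-fold in both libraries, and *Ccnd3* lies at 0.01 and 0.10.

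Other genes of the pathway, 28 in 5 lists, gave the context. At the step from ProNeu-like to PreNeu-like cells, 7 of 26 tested (26.9%) fell past 2-fold in both libraries and 3 rose (11.5%), where 34.9% of all genes fell and 6.16% rose. All 3 genes of the CDK-activating kinase, which switches CDKs on, fell: *Cdk7* (30.8 to 9.79 and 28.9 to 10.1 CPM), *Ccnh* (73.2 to 22.2 and 68.5 to 24.8) and *Mnat1* (38.9 to 12.0 and 32.8 to 7.95). *E2f3*, *E2f6*, *Tfdp2* and *Fbxo31* also fell. *E2f2*, an activating E2F factor, rose from 22.8 to 136 and from 25.2 to 128 CPM, *E2f7* from 11.1 to 36.6 and from 8.28 to 25.7, and *Ccna2*, the cyclin of S and G2 phase, from 83.8 to 215 and from 68.6 to 186. At the step into imNeu-like cells, which the cycle share divides, 11 of 24 fell (45.8%) and 0 rose, where 15.0% of all genes fell and 5.66% rose. They were *Ccna2* (215 to 9.95 and 186 to 4.46 CPM), *Ccne1*, *Ccne2*, *Rbl1*, *E2f6*, *E2f7*, *E2f8*, *Tfdp2*, *Cdkn1a*, *Skp2* and *Cks1b*. *Skp2* and *Cks1b*, which mark p27 for breakdown, read 13.9 and 152 CPM before and 1.45 and 15.0 after it in the library labelled Ctrl. In mNeu-like cells, where 7.17% of all genes fell and 10.8% rose, 2 of 21 fell (*E2f1* and *Cdk2*) and 1 rose, *Fbxo31*, an adaptor known for turnover of cyclin D1 (5.79 to 47.9 and 3.32 to 26.4 CPM).

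Between the libraries, the 9 genes were compared within each neutrophil stage. In ProNeu-like cells 0 of 9 were past 2-fold in either direction, where 5.26% of all genes tested were lower and 1.63% higher in the library labelled cKO. In PreNeu-like cells 1 of 8 was lower (*Ccnd2*, log2 ratio -2.60, -3.90 to -1.49), where 8.61% were. In imNeu-like cells 3 of 8 were lower, where 16.8% were: *Ccnd2* (-1.98), *Cdk4* (-1.90, -2.45 to -1.36) and *Cdk6* (-1.43, -1.71 to -1.16). In mNeu-like cells 4 of 9 were lower, where 23.2% were: *Cdk4* (-2.52, -3.22 to -1.86), *Ccnd1* (7 against 3 UMIs), *Cdkn2c* (-1.73) and *Cdk6* (-1.65). *Cdk6* in PreNeu-like cells lay at the limit (-0.996) and passed it under 5 of the alternatives, as did *Ccnd2* in mNeu-like cells (-0.98) under 4. Over all alternatives the former ran from -1.07 to -0.71 and the latter from -1.05 to -0.60. None of the tested genes was past 2-fold higher, where 1.27%, 1.51% and 1.86% of genes were in PreNeu-like, imNeu-like and mNeu-like cells. The medians of all genes were themselves below 0, at -0.27, -0.32, -0.42 and -0.50 along the 4 stages.

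Genes made by other marrow cells also read lower in the late stages of the library labelled cKO, and some of them did so in the earlier stages too. In imNeu-like cells *Mpo*, a primary granule gene, read 302 CPM in the library labelled Ctrl and 98.4 in that labelled cKO, *Igkc*, an antibody gene, 491 and 66.2, and the globin gene *Hbb-bs* 101 and 10.4. In mNeu-like cells these read 481 and 148, 742 and 110, and 167 and 16.7 CPM. *Igkc* and *Hbb-bs* were lower at the earlier stages as well. They read 284 and 76.4 and 48.4 and 7.45 CPM in ProNeu-like cells. In PreNeu-like cells they read 310 and 57.7 and 62.3 and 6.47 CPM. Over whole lists, the 9 ProNeu markers together gave 916 and 460 CPM among imNeu-like cells, then 1340 and 609 CPM among mNeu-like cells, with a UMI of each of the 9 in both. The 12 HSC/MPP markers gave 36.7 and 9.02 CPM in the former, where 11 and 10 of them had a UMI, and 50.4 and 12.2 CPM in the latter, where 11 and 11 had one. Their part in the lower *Ccnd2*, *Cdk4*, *Cdk6* and *Cdkn2c* values was not tested. The genes that were high in late neutrophils differed less: *Ccnd3* gave 0.04, -0.03 and 0.08 in PreNeu-like, imNeu-like and mNeu-like cells, and *Cdkn1b* -0.21, -0.43 and -0.11. *Cdkn2d* was the one gene with an interval above 0 at all 4 stages, at 0.45 (0.30 to 0.60), 0.33 (0.26 to 0.40), 0.41 (0.28 to 0.54) and 0.63 (0.51 to 0.75), and it reached 1.01 in mNeu-like cells with median-of-ratios scaling. *Rb1* was below 0 at all 4, with -0.93 (-1.21 to -0.66) as the lowest value, in ProNeu-like cells, and -0.33 as the highest, in imNeu-like cells, where it turned to 0.03 with median-of-ratios scaling. With 1 library each, genotype, any difference in poly I:C treatment, animal and library preparation cannot be told apart.

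**Figure D5:**
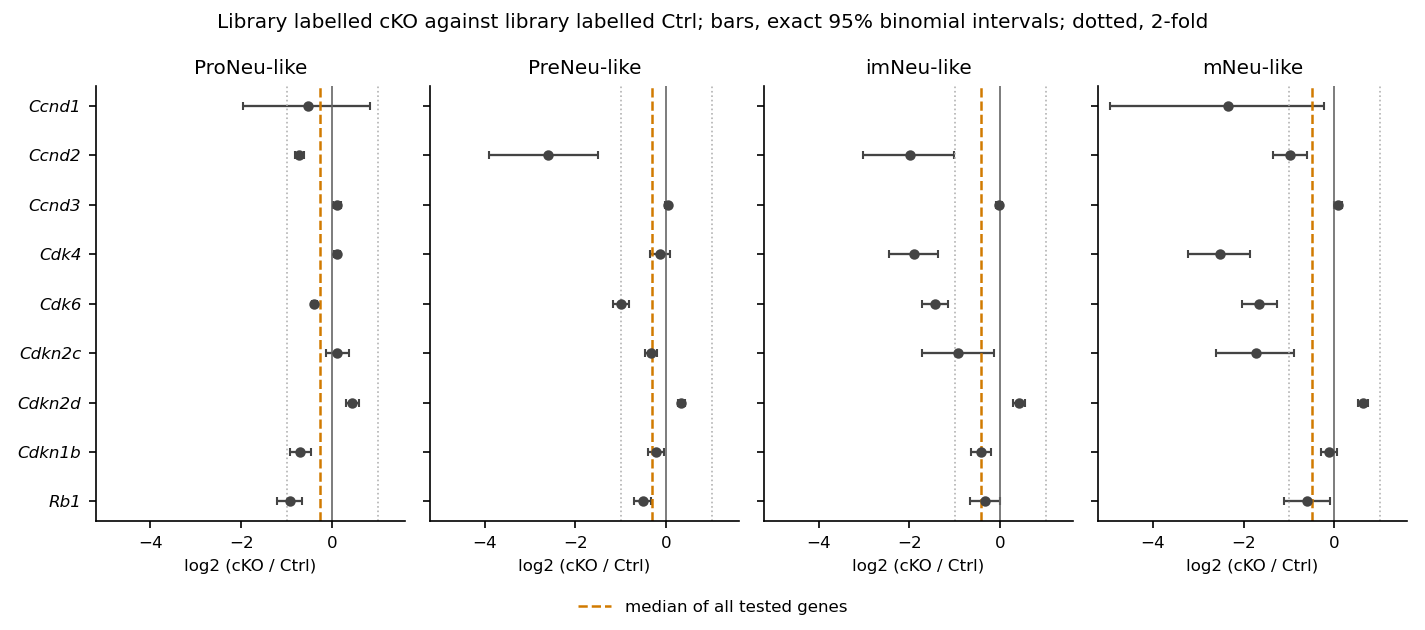
Log2 ratio of CPM in the library labelled cKO over that labelled Ctrl (x axis, exact 95% binomial intervals) for the tested genes in the 4 neutrophil stage gates; dotted lines mark 2-fold and the dashed line the median of all tested genes. *Ccnd3* lies between -0.03 and 0.11 at every stage, while *Cdk4* goes from 0.11 in ProNeu-like to -2.52 in mNeu-like cells.

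Inside HSC/MPP-like cells, stem cells were set apart by a UMI of *Hlf*, *Mecom* or *Procr* and none of *Flt3*, and multipotent cells by *Flt3* and none of the other 3. The former were 122 and 37 cells and the latter 25 and 11. *Ccnd2* read 244 CPM (216 to 276) and 218 (176 to 267) in the stem set and 435 (356 to 526) and 422 (312 to 557) in the multipotent set, with intervals apart in both libraries. *Cdk6* read 926 (870 to 986) and 737 (659 to 822) in the former and 809 (700 to 929) and 680 (538 to 847) in the latter, with overlap. The other 7 genes had overlapping intervals in both libraries, several of them from under 10 UMIs.

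Genes whose levels over gates ran most like those of the group were listed over 24 points, the gates of at least 50 cells in each library, by Pearson's r of log2(CPM + 10). The points share libraries and depth, so r is a description. *Cdk4* ran with *Impdh2* (0.99), *Lsm7* (0.99) and *Pa2g4* (0.99), genes of nucleotide synthesis, RNA processing and growth. *Cdk6* ran with *Myc* (0.96), *Wdr12* (0.96) and *Wdr36* (0.95), the latter 2 genes of ribosome assembly. *Ccnd3* ran with *E2f2* (0.91), *Lbr* (0.84) and *Ppp1r2* (0.81), and *Cdkn2c* with *Tcf19* (0.93), *Foxm1* (0.92) and *Ccnf* (0.92), genes of dividing cells. *Ccnd1* ran with *Zc3h12c* (0.93), *Ccnd2* with *H2-Q7* (0.88), *Cdkn1b* with *Lnpep* (0.89), *Cdkn2d* with *Plp2* (0.91) and *Rb1* with *Usp33* (0.82). Within the group, *Cdk4* and *Cdk6* ran together (0.89), as did *Cdkn2d* and *Ccnd3* (0.73), and *Cdkn2d* ran against *Cdk4* (-0.72) and *Cdk6* (-0.72).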

How the data were processed

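Single-cell libraries were prepared from 2 samples, 1 labelled Ctrl and 1 labelled cKO. The values are whole-number counts (UMIs by gene and barcode), which the authors produced using Cell Ranger 5.0.0 on mm10 (GRCm38) and deposited without normalization, for barcodes called as cells. Cells with 200 to 9000 detected genes, at most 30% mitochondrial UMIs and at least 1000 UMIs were kept, which left 70435113 and 63245849 UMIs. Each cell took the class with the highest mean marker score if that score was at least 0.5 and led the next by 0.25. The 16 marker lists held 143 genes. UMIs were summed per gate and library and given as CPM with exact Poisson intervals, ratios of sums with exact binomial intervals, and shares with Clopper-Pearson intervals. The intervals cover counting error only, and with 1 library per condition no p-value was computed.

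A gene was tested with at least 10 UMIs over the 2 sums compared in each library, and called when it differed at least 2-fold in the same direction in both libraries, or, between the libraries, in the one ratio. A sum of 0 was replaced by a floor of 3 counts and could then be called only toward the other sum. The text names all 9 genes, the pathway genes past 2-fold at a neutrophil step, and for each of the 9 the 3 genes with the highest r among those with at least 50 CPM in 1 gate, of which only the first is named for some. *Mpo*, *Igkc* and *Hbb-bs* were named after their values had been seen. The members and lists were chosen with earlier results of these data known. The cycle share that parts PreNeu-like from imNeu-like cells, the motif letters and the stem set were settled on these data as well. Alternatives changed the UMI floor, the mitochondrial ceiling, the depth at gating, the CPM total, the scaling, the summary over cells, the cycle cut, the margin and the count filter. The calculations were tested on simulated data and run with numpy 2.4.6, pandas 2.3.3, scipy 1.17.1 and matplotlib 3.10.9 under Python 3.11.15. Doublets were not called.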

Additional observations from a re-analysis of the deposited data

Results flagged for a closer look

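*Rb1* differed in direction between the libraries when cycling ProNeu-like cells were set against the other ProNeu-like cells. In the library labelled Ctrl it read 35.3 CPM (20 UMIs in 45 other cells) against 20.7 CPM (286 UMIs) in cycling cells, a log2 ratio of -0.77 (-1.43 to -0.04). In the library labelled cKO it read 4.65 CPM (7 UMIs in 109 other cells) against 11.8 CPM (168 UMIs), a log2 ratio of 1.35 (0.27 to 2.68). The difference between the libraries was not tested, since each condition was 1 library, and with the cycle share cut at 0.125% the ratio in the library labelled cKO was -0.98.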

How the results depend on the processing

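No paired analysis was possible because each condition was 1 library. Of the 9 genes, 8 passed 2-fold at the step from ProNeu-like to PreNeu-like cells, 2 at each later step, 8 values between the libraries and 6 between cycling and other cells, and under the alternatives these counts stayed within 1.5 times the values given except as follows. At the step from PreNeu-like to imNeu-like cells 1 was left, *Cdkn2c*, with median-of-ratios scaling and with a mean of per-cell proportions. With double the cycle cut the count there stayed at 2, but the members changed. *Cdkn2d* (-1.13 and -1.05) passed and *Cdk4* did not (-0.54 in the library labelled Ctrl). At the step to mNeu-like cells 1 was left and higher, *Ccnd2*, with a floor of 2000 UMIs and with CPM without mitochondrial, ribosomal and marker genes. Between cycling and other cells 2 were left, both higher, with gating after thinning to 1000 UMIs and with double the cycle cut. Median-of-ratios scaling put 1 value higher in the library labelled cKO. It moved the median log2 ratio of all genes by 0.62 and 0.66 at the first step, by 0.26 and 0.35 at the second and by 0.24 to 0.38 between the libraries, and no ratio past 2-fold changed sign. With the cycle share cut at 0.125%, *Cdkn2d* and *Rb1* in cycling ProNeu-like cells of the library labelled cKO changed direction, to -0.0045 and -0.98, and the cause was not tested. Taking 1 library alone or leaving out the 5% deepest cells of each gate was chosen after seeing the data. The library labelled cKO alone had 1 gene higher at the step to imNeu-like cells (*Ccnd2*, from 8 to 14 UMIs), and without the deepest cells each count was as before. *Rb1* between the libraries in imNeu-like cells went from -0.33 to 0.03 with median-of-ratios scaling. Of 51 ratios past 2-fold, 41 stayed past it with double the cycle cut, 42 of 49 with gating after thinning and 50 of 51 with at most 10% mitochondrial UMIs. Depth limits *Ccnd1* in all 4 neutrophil stages, where no sum was over 12 UMIs, and *Ccnd2* and *Cdkn2c* in imNeu-like cells, where none was over 29.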

Other observations

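The cells without a clear class, 1282 in the library labelled Ctrl and 815 in that labelled cKO, read 301 and 417 CPM of *Ccnd3*, 366 and 209 of *Cdk6*, 155 and 113 of *Cdk4* and 92.5 and 169 of *Cdkn2d*. The cells left out for holding under 1000 UMIs, 1170 and 1371 with medians of 709 and 723 UMIs, read 329 (292 to 370) and 281 CPM (249 to 316) of *Ccnd3*, 208 and 211 of *Cdk6*, 93.3 and 74.3 of *Cdk4* and 89.7 and 131 of *Cdkn2d*. *Ccnd2* read 111 and 52.2 CPM in those shallow cells, above its level in PreNeu-like, imNeu-like and mNeu-like cells of the same library.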
